A study of Mus musculus with 2 samples.

Results

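The genes described here are 95 of the 21951 protein-coding genes of GENCODE vM21 on the mouse genome GRCm38, and they carry the classical names of cell cycle genes. They were chosen by symbol alone: Cdk, Cdc, Anapc or Plk followed by a number, Ccn followed by 1 letter and an optional number, and Cenp or Aurk followed by 1 letter. A symbol is not a function, so the list also holds cyclins and kinases that act in transcription, and a few CDC genes that work outside the cell cycle. The rule itself uses no peak, although it was set with earlier results of these data known.

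The study mapped SRCAP by CUT&RUN, in which an antibody-tethered nuclease cuts out the DNA beside its target. SRCAP is the ATPase of a remodeller that swaps H2A for H2A.Z in nucleosomes. The cells were SYAT mouse embryonic stem cells (mESCs), a CGR8 line with YPet-AID knocked into both Srcap alleles and with stable expression of OsTir1. There was 1 library with a GFP antibody, which recognises the YPet tag, and 1 library with a SRCAP antibody, and each gave 1 list of peaks. Both libraries therefore came from the same modified line, and no unmodified line or control antibody was analysed here. YPet is a yellow fluorescent protein, AID is a degron that OsTir1 links to degradation when auxin is added, and the line was routinely kept in auxinole to limit degradation without auxin. The treatment of these libraries was not given in the labels. CUT&RUN is the assay that the labels give for both libraries. The methods of the study pair the GFP antibody with CUT&Tag instead, so for that library the assay rests on its label. Each library used 100000 cells, fixed for 5 min in 0.1% formaldehyde per the labels, and the 75 nt reads came from inserts of 250 bp. With 1 library per antibody there was no replicate error, so no test was made. The 95% Wilson intervals given with percentages cover counting error only, over genes or peaks that are not independent replicates.

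Cyclins are the regulatory subunits of cyclin-dependent kinases (CDKs). Cyclin D with CDK4 or CDK6 and cyclin E with CDK2 act on the way into S phase, cyclin A acts through S and G2 phase, and cyclin B with CDK1 drives mitosis. The anaphase-promoting complex (APC/C) then marks cyclin B and securin for destruction, Polo-like and Aurora kinases order the mitotic events, and CENP proteins build the kinetochore on centromeric chromatin. Promoters of genes that are induced in late G1 or in G2 often hold short elements named E2F, CHR and CCAAT box, which are bound by E2F factors, by the MuvB complex and by NF-Y. H2A.Z is found around the transcription start sites (TSSs) of active genes, and in mESCs also at bivalent promoters and at enhancers.

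A gene was counted as having a promoter peak when the midpoint of a peak lay from 1000 bp upstream to 500 bp downstream of any of its annotated TSSs. By that measure the GFP list held a promoter peak for 55 of the 95 genes (57.9%, 95% interval 47.8 to 67.3%), against 35.0% of all protein-coding genes. In the SRCAP list 54 had one (56.8%, 46.8 to 66.3%), against 35.6%. A peak in both lists was found at 45 genes (47.4%, 37.6 to 57.3%), against 27.0%, and 31 genes (32.6%, 24.0 to 42.6%) had a peak in neither, against 56.4%. The remaining genes had a peak in 1 list, 10 of them in the GFP and 9 in the SRCAP list.

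Base composition moved with this difference. A CpG-rich promoter was defined here as one with an observed over expected CpG ratio of at least 0.6 between 250 bp before and 50 bp after its TSS. A single TSS per gene was read for this, the one with most protein-coding transcripts, while a peak could lie at any TSS of the gene. Of the 95 genes, 81 had one. Among these 81, the GFP list had a promoter peak at 48 (59.3%, 48.4 to 69.3%), against 52.3% of all CpG-rich protein-coding promoters. The SRCAP list had one at 45 (55.6%, 44.7 to 65.9%), against 53.5%. Both intervals include the value for all CpG-rich promoters, so among CpG-rich promoters the cell cycle genes were not set apart by their share of peaks at this number of genes. Among the 14 genes with a CpG-poor promoter, 7 had a GFP peak (50.0%, 26.8 to 73.2%), against 20.7%. A SRCAP peak was found at 9 of them (64.3%, 38.8 to 83.7%), against 20.8%. Both of these intervals lie above the value for all genes with a CpG-poor promoter. The 14 genes include Anapc15, Cdk18 and Cdk20, whose peaks are described below, and Ccnd1, Ccnd2, Cdk14 and Aurkc, which had none. The peaks of Cdk18 lay at different TSSs, so they were not all at the TSS whose composition was read. The composition at the TSS nearest to each peak was not read, so these shares are of genes and not of CpG-poor promoters under a peak.

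The stretches below lie under promoter peaks of 8 genes, and are shown because these genes are regulators of mitosis or had some of the highest scores, and because E2F, CHR or CCAAT letters fell within their peak windows. Capitals mark those letters, read on both strands: E2F was searched as TTCCCGC in a first form, as TTCGCGC in another, then as TTGCCGC and also as TTGGCGC. CHR was searched as TTTGAA and in the form TTCGAA, and the CCAAT box as CCAAT, which reads ATTGG on the other strand. Each stretch is free of annotated exons, comes from GRCm38 and is written 5′ to 3′ in the direction of the gene.
Cdk1, chr10:69352970-69353129, minus strand: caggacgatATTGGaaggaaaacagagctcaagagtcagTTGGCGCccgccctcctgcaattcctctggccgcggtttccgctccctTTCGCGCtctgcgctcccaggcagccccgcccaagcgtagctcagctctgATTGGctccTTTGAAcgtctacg
Cdc20, chr4:118437356-118437515, minus strand: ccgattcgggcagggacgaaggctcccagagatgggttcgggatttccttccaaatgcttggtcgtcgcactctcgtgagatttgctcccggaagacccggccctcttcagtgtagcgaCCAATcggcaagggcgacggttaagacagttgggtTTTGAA
Ccng2, chr5:93267094-93267253, plus strand: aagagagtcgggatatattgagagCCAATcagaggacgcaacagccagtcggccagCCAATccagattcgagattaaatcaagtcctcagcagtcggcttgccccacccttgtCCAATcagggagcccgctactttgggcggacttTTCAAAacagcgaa
Aurka, chr2:172370536-172370680, minus strand: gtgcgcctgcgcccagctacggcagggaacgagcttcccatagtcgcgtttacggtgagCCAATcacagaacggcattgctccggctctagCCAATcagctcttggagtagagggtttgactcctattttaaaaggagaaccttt
Aurkb, chr11:69045589-69045646, plus strand: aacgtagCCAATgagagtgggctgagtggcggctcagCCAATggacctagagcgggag
Cenpf, chr1:189688145-189688304, minus strand: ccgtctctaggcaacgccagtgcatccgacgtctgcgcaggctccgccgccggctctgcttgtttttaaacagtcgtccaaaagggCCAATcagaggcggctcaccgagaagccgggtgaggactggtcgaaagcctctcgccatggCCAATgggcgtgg
Cenpx, chr11:120713753-120713912, minus strand: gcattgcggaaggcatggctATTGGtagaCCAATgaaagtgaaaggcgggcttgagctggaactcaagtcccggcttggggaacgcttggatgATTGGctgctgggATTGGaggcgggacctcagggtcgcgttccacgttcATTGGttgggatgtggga
Ccnk, chr12:108179405-108179564, plus strand: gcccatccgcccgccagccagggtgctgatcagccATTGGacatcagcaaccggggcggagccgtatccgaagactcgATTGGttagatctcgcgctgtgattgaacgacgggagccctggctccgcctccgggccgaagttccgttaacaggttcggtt

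The Cdk1 stretch holds 2 E2F, 2 CCAAT and 1 CHR match within 160 bp and ends 32 bp before the TSS. The Cdc20 stretch holds 1 CCAAT and 1 CHR match and ends 4 bp before the TSS. Ccng2 holds 3 CCAAT matches and 1 CHR match, read as TTCAAA on the gene's strand. Cenpx holds 5 CCAAT matches, and Aurka, Aurkb, Cenpf and Ccnk hold 2 each. In the 300 bp from 250 bp before to 50 bp after the TSS, E2F letters occur in 11.7%, CHR letters in 17.6% and CCAAT letters in 38.9% of all protein-coding promoters. A match of letters is not evidence that a factor binds there.

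The genes fell into 13 role groups, and the share with a GFP promoter peak ranged from 16.7% of transcription kinases to 83.3% of the CDC genes outside replication and the APC/C. Among all protein-coding genes it was 35.0%. The groups hold from 3 to 16 genes, so their intervals are wide, and all of them overlap one another.

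**Figure D1:**
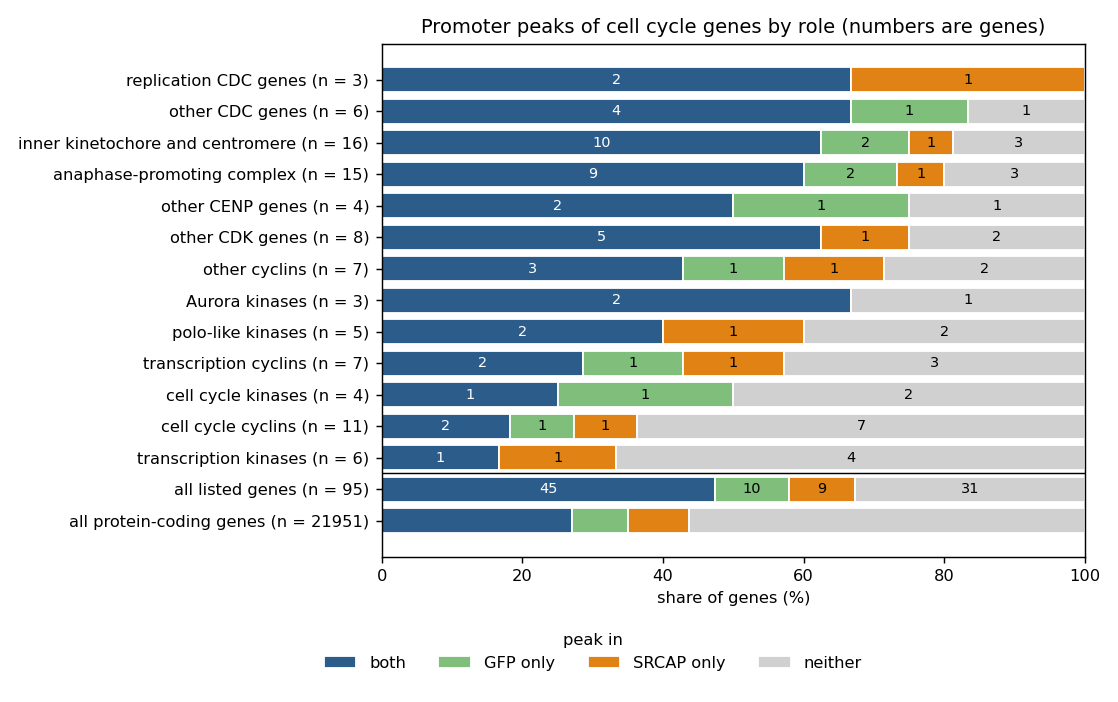
Share of genes (%) with a promoter peak in both lists, the GFP list only, the SRCAP list only or neither, for each role group, all 95 listed genes and all 21951 protein-coding genes, with the number of genes printed in the bars. The bar for neither list takes 7 of 11 cell cycle cyclins and 3 of 16 inner kinetochore and centromere genes.

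Of the 11 cyclins of the cell cycle itself, only Ccna2 and Ccnf had a peak in both lists, and 7 had a promoter peak in neither (63.6%, 35.4 to 84.8%), against 27.0% and 56.4% of all protein-coding genes. Their shares were thus not set apart from those of all genes at this number of genes. Ccna2 encodes cyclin A2, the partner of CDK2 and CDK1 in S and G2 phase. Its promoter carried a peak with score 117 in the GFP list at chr3:36572012-36572524 and with score 121 in the SRCAP list at chr3:36572010-36572483. The score is the whole number that the authors' list gives each peak, and its meaning was not stated. It is read here only as a rank within its own list, where the percentile is the share of peaks at or below it. These scores put Ccna2 at percentiles 90.8 and 90.9, GFP list first as in all pairs that follow, so the gene ranked high in both.

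Ccnf, the substrate receptor of a ubiquitin ligase, had scores of 96 and 167, at percentiles 86.0 and 96.1. The mitotic cyclin genes Ccnb1, Ccnb2 and Ccnb3, the G1 cyclin genes Ccnd1 and Ccnd2, and the G1/S cyclin genes Ccne1 and Ccne2 had no promoter peak with either antibody. Ccnd3, which encodes another D-type cyclin, had a GFP peak of score 21 only, at percentile 4.76 of its list and 790 bp upstream of the TSS. Ccna1, the cyclin A of the germ line, had a SRCAP peak of score 40 only.

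Where the promoter had no peak, the nearest peaks of these cyclin genes lay at varied distances. Ccnd1 had a SRCAP peak of score 27 at 530 bp downstream of a TSS, which is just outside the window, and its nearest GFP peak was 23239 bp away. Ccnd2 had a peak within the gene in both lists, 8450 bp downstream of the nearest TSS with score 127 (GFP) and 8470 bp with score 39 (SRCAP). The peak of Ccnb1 nearest to a TSS lay 5261 bp downstream with score 37 in the GFP list, and that peak is the one at the promoter of Cenph, the next gene on chromosome 13. The nearest peaks of Ccne1 lay 14392 and 14408 bp from a TSS, and for Ccne2 they lay 60824 and 35395 bp away.

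Of the 4 CDK genes that drive the cycle, Cdk1 had a peak in both lists, Cdk4 in the GFP list, and Cdk2 and Cdk6 in neither. Cdk1, the kinase of mitotic entry, had scores of 239 and 109, at percentiles 98.5 and 88.6, with midpoints 142 and 180 bp upstream of the TSS. The GFP peak of Cdk4, the kinase of G1, scored 29, at percentile 20.3, and lay 360 bp upstream. The nearest peaks of Cdk2 lay 5818 and 5938 bp upstream, with scores of 29 and 34. Cdk6 spans 189.5 kb and had 3 GFP and 2 SRCAP peaks inside the gene, none of them at a promoter.

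The GFP list held a promoter peak for 1 of 6 transcription kinases (16.7%, 3.01 to 56.4%) and the SRCAP list for 2 of 6 (33.3%, 9.68 to 70.0%). The 35.0% and 35.6% of all genes lie inside these intervals. With a window of 2500 bp on either side each list had 3 of 6 (50.0%), and with 500 bp or TSSs of coding transcripts only each had 1 of 6 (16.7%). Cdk19, a Mediator kinase, had the highest lower percentile of all 95 genes, with scores of 296 and 185 at percentiles 99.1 and 96.9. Its paralog Cdk8 had no promoter peak. It did hold a peak inside the gene at nearly the same place in both lists, 3343 and 3381 bp downstream of the nearest TSS, with scores of 187 and 375, and the latter is above every promoter peak of the 95 genes in the SRCAP list. Cdk7, the CDK-activating kinase, had peaks 2401 and 2352 bp upstream of its nearest TSS and inside the gene, with scores of 137 and 43. Cdk12 and Cdk13, which phosphorylate RNA polymerase II during elongation, had no promoter peak, although a GFP peak of score 66 lay 1206 bp upstream of a Cdk12 TSS. Cdk9, the kinase of P-TEFb, had a SRCAP peak of score 29 at 755 bp upstream.

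Among their cyclin partners each list had a promoter peak for 3 of 7 (42.9%, 15.8 to 75.0%), near the 35.0% and 35.6% of all genes. Of these, 1 GFP peak (14.3% of the 7 genes) had at least the median score of its list. Ccnk, the partner of CDK12 and CDK13, scored 183 and 121, at percentiles 97.0 and 90.9. Ccnt2, a P-TEFb cyclin, scored 40 and 87. Ccnc, the Mediator cyclin, had a GFP peak of score 24 only and Ccnt1, the other P-TEFb cyclin, a SRCAP peak of score 22 only. Ccnh, Ccnl1 and Ccnl2 had none.

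Of the 8 other CDK genes, 5 had a peak with the GFP antibody (62.5%, 30.6 to 86.3%, against 35.0%) and 6 with the other (75.0%, 40.9 to 92.9%, against 35.6%). Both intervals overlap those of the transcription kinases and their cyclins. Cdk20 had one of the widest promoter peaks, 780 and 779 bp, with scores of 156 and 217 at percentiles 95.5 and 98.0. Cdk5, a kinase of postmitotic neurons, Cdk10 and Cdk16 also had a peak in both lists. Cdk18 was counted in both lists, but its peaks lay at different TSSs, at chr1:132139003-132139241 in the GFP list and chr1:132116788-132117032 in the SRCAP list. Cdk15 had a SRCAP peak only, and Cdk14 and Cdk17 had none at a promoter.

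Among the cyclins outside both groups, Ccng1, Ccng2 and Ccni had a peak in both lists. Ccng2, a cyclin associated with cell cycle arrest, had the highest SRCAP score of the 95 promoters, 247, beside a GFP score of 168, at percentiles 96.4 and 98.6. Ccng1, a target of p53, scored 158 and 82. Ccnq had a GFP peak only, Ccny had a SRCAP peak of score 53 only, and Ccnj and Ccno had none. Ccno had peaks of score 99 and 151, outside the window at 1908 and 1907 bp upstream.

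Of 15 APC/C genes, which here include the activator Cdc20, 11 had a GFP promoter peak (73.3%, 48.0 to 89.1%), 10 a SRCAP peak (66.7%, 41.7 to 84.8%) and 9 in both (60.0%, 35.7 to 80.2%). By the lower percentile of both lists the highest were Anapc15 with scores of 185 and 155, and Anapc4, a scaffold subunit, with scores of 120 and 152. Cdc23 scored 134 and 53. Anapc15 stood at percentiles 97.1 and 95.2. Cdc20, the activator that the spindle checkpoint holds back, scored 33 and 85, at percentiles 25.9 and 80.8. A weaker GFP peak of Cdc20 lay 859 bp upstream, near the edge of the window. Cdc16 had the highest score of any gene found in the GFP list alone, 88 at percentile 83.3, and Anapc1, the largest subunit, scored 58. Anapc5 had a SRCAP peak of score 45 only. Anapc11, which carries the RING domain of the ligase, Anapc13 and Cdc27 had no promoter peak.

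The 3 genes for replication had a promoter peak in at least 1 list (100%, 43.9 to 100%), against 43.6% of all protein-coding genes. That share lies just below the interval, and the 64.5% of genes with a CpG-rich promoter lies inside it. Cdc45, a part of the replicative helicase, scored 98 and 136, and Cdc7, the kinase that fires origins, scored 38 and 59. Cdc6, which loads the helicase onto origins, had a SRCAP peak of score 106 at percentile 88.1 and 16 bp upstream of the TSS, while its nearest GFP peak lay 7206 bp away. No other peak found with 1 antibody only had a higher percentile in its list. Of the 6 other CDC genes, Cdc34, Cdc37, Cdc40 and Cdc123 had a peak in both lists, Cdc73 in the GFP list, and Cdc42, a small GTPase of cell polarity, in neither.

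Among the Polo-like kinase genes 2 of 5 had a peak in both lists (40.0%, 11.8 to 76.9%). Of the Aurora kinase genes 2 of 3 did (66.7%, 20.8 to 93.9%), and both intervals include the 27.0% of all protein-coding genes. Plk1, the main Polo-like kinase of mitosis, scored 55 and 133, at percentiles 61.9 and 92.9, and its peaks were 806 and 409 bp wide. Plk3, a stress-responsive Polo-like kinase, scored 171 and 59. Plk4, the kinase of centriole duplication, had a SRCAP peak of score 34 only, and Plk2 and Plk5 had none. Aurka, the kinase of spindle poles, scored 52 and 53, and Aurkb, the kinase of the chromosomal passenger complex, scored 75 and 41, at percentiles 77.0 and 44.9. Aurkc, the Aurora kinase of germ cells, had its nearest peaks 76918 and 57956 bp upstream of a TSS.

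Of 16 genes for the inner kinetochore and centromere, 12 had a GFP promoter peak (75.0%, 50.5 to 89.8%), 11 a SRCAP peak (68.8%, 44.4 to 85.8%) and 10 in both (62.5%, 38.6 to 81.5%). These shares and those of the APC/C lay above the values for all protein-coding genes with both antibodies, and their intervals excluded them. They overlapped the 52.3% and 53.5% of CpG-rich promoters. Cenpa, the histone H3 variant of centromeres, scored 77 and 89, at percentiles 78.8 and 83.1, with midpoints 19 bp downstream and 11 bp upstream of the TSS. Cenpu scored 126 and 200, and Cenpx scored 127 and 129. Cenpi had a GFP peak of score 68 only, Cenpt a GFP peak of score 31 only, and Cenpm a SRCAP peak of score 19 only. Cenpk, Cenpp and Cenpw had none. Outside the inner kinetochore, Cenpf, a protein of the outer corona, scored 113 and 153, at percentiles 90.1 and 95.1. Cenpj, a centriole protein, also had peaks in both, Cenpv had a GFP peak only, and the motor protein gene Cenpe had none.

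**Figure D2:**
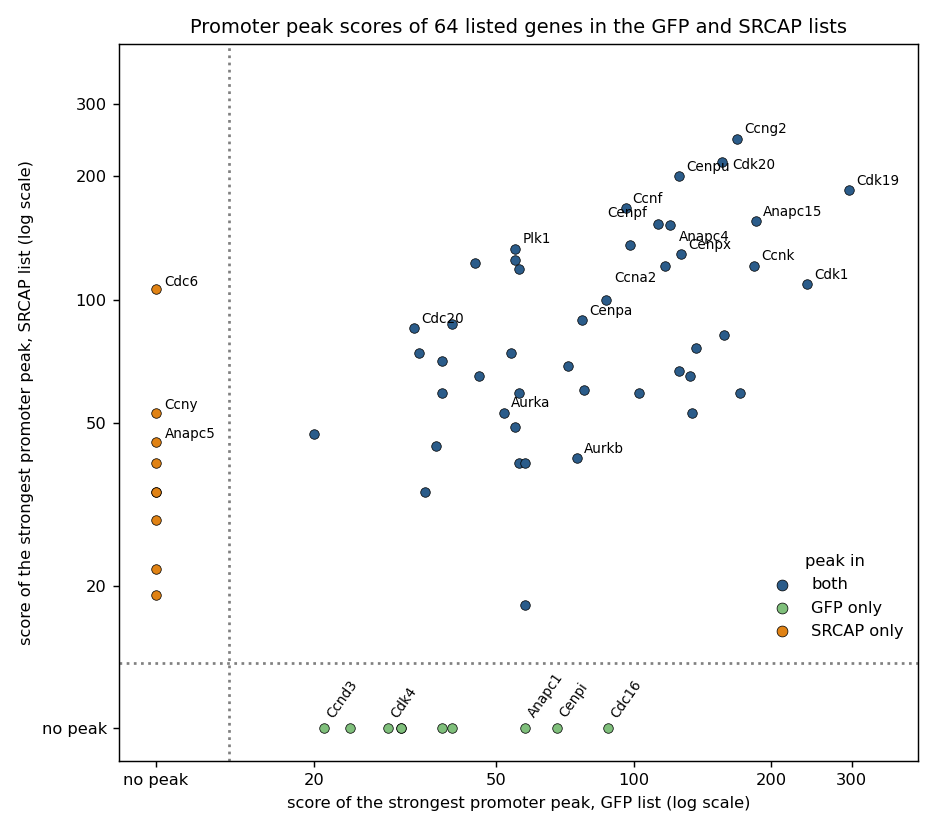
Score of the strongest promoter peak of each gene in the GFP list (x axis, log scale) and the SRCAP list (y axis, log scale), for the 64 listed genes with a promoter peak. Points on the margins have no promoter peak in the other list, and dotted lines mark the lowest score in the lists, 13. Ccng2, Cdk20, Cdk19 and Anapc15 lie at the upper right, and genes with a peak in 1 list lie mostly at low scores.

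The strongest promoter peak of each gene was used to describe size. Over the 55 genes with a GFP peak the scores ranged from 20 to 296 and the median percentile was 64.3, against 63.4 over all 7683 protein-coding genes with a GFP peak. Over the 54 genes with a SRCAP peak the scores ranged from 18 to 247 and the median percentile was 72.5, against 66.2 over 7825 genes. Median widths were 410 bp against 350 bp for GFP peaks and 357.5 bp against 309 bp for SRCAP peaks. The genes were thus close to other genes with a promoter peak in rank, with somewhat wider peaks.

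Peaks found with both antibodies ranked higher than those found with 1. The median percentiles were 78.8 and 76.6 for the 45 genes with both, and 29.5 for the 10 genes with a GFP peak only and 35.0 for the 9 with a SRCAP peak only. Each list stops at a minimum score, so a weak peak in 1 list can easily be missing from the other. These medians were not read over all protein-coding genes, so the order is not a trait of the listed genes. Of the 45, 43 had overlapping strongest peaks, the exceptions being Cdk18 and Cenps, and 30 had midpoints within 100 bp of each other. The median gap was 65 bp. Over the 45 genes Spearman's rho between the scores of both lists was 0.46 and Pearson's r of their log10 values 0.51, against 0.56 and 0.61 over 5931 protein-coding genes. These are descriptions across genes that share both libraries, and genes are not independent replicates. Of 61 distinct GFP promoter peaks of the 95 genes, 45 overlapped a SRCAP peak by at least 1 bp (73.8%, 61.6 to 83.2%), and 43 of 58 SRCAP peaks overlapped a GFP peak (74.1%, 61.6 to 83.7%). For all protein-coding promoter peaks these shares were 68.8% and 68.5%, inside both intervals.

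**Figure D3:**
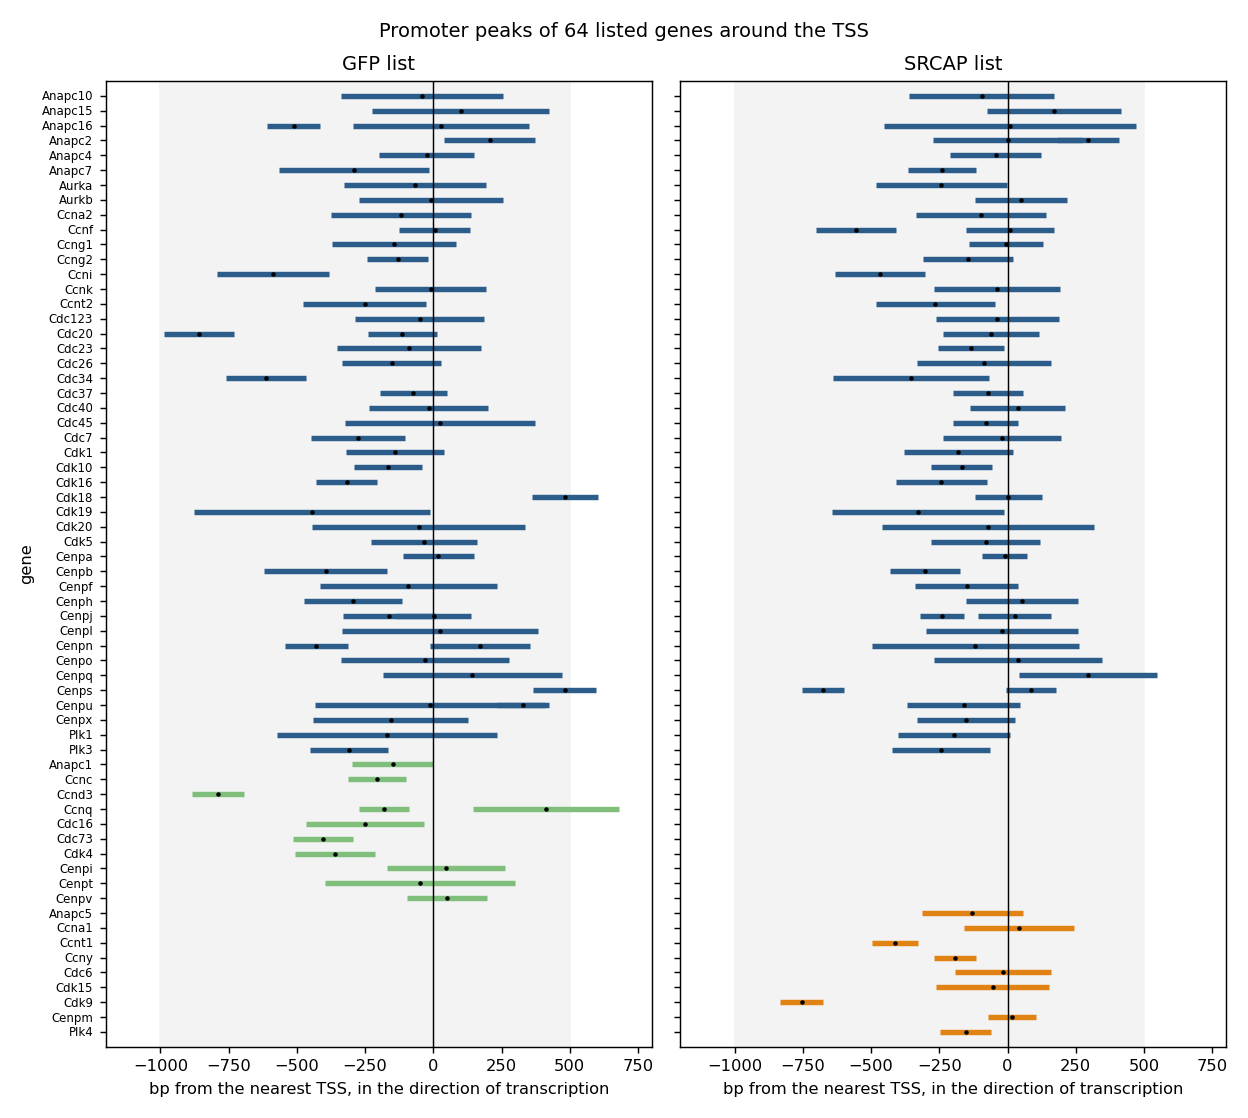
Extent of each promoter peak (bars) and its midpoint (dots) in bp from the nearest TSS, in the direction of transcription, for the 64 listed genes, in the GFP list (left) and SRCAP list (right). Blue genes have a peak in both lists, green in the GFP list only and orange in the SRCAP list only, and the grey band is the promoter window. Most bars reach the TSS or end just upstream of it.

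Peaks lay close to the TSS and mostly on its upstream side. The promoter window, from 1000 bp upstream to 500 bp downstream, limits the distance and favours the upstream side, for these genes and for all genes. The median midpoint was 89 bp upstream for GFP peaks and 80 bp upstream for SRCAP peaks, against 129 and 92 bp upstream over all genes with a promoter peak. The midpoint was upstream of the nearest TSS at 41 of 55 genes (74.5%) and 40 of 54 genes (74.1%), against 72.5% and 72.6%. It lay within 200 bp of the TSS for GFP peaks at 36 genes (65.5%, 52.3 to 76.6%, against 58.4%) and for SRCAP peaks at 41 (75.9%, 63.1 to 85.4%, against 68.1%). By annotation, 38 GFP peaks had their midpoint upstream of the gene, 13 in an untranslated or noncoding exon, 8 in an intron and 2 in a coding exon, and for SRCAP these numbers were 34, 15, 5 and 4. Near the edges of the window, Cdk18 at 483 bp and Cenps at 481 bp downstream in the GFP list were just inside, and Ccnd1 at 530 bp downstream and Cdk12 at 1206 bp upstream were just outside.

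Some of the cell cycle genes shared a promoter peak with a neighbour. Of the 61 GFP peaks, 17 also lay in the promoter window of another protein-coding gene (27.9%, 18.2 to 40.2%), against 11.0% of all promoter peaks. The SRCAP list gave 17 of 58 (29.3%, 19.2 to 42.0%), against 11.0%. These shares are not like for like. A peak at 2 genes counts once among all peaks, but either gene can bring it into the list. With such peaks left out, genes with a GFP peak fell from 57.9% to 43.2% here and from 35.0% to 28.1% overall in the genome. For SRCAP peaks the fall was from 56.8% to 41.1% here and from 35.6% to 28.7% of all protein-coding genes. The shared peaks belonged to 17 of the 95 genes, 15 of them in the GFP list and all in the SRCAP list. Aurka shared its peaks with Cstf1, Ccnk with Setd3, Cdc45 with Ufd1, Cdk5 with Slc4a2, Cdc26 with Prpf4, Anapc10 with Abce1 and Cenpx with Lrrc45. At such a promoter a peak cannot be assigned to either gene.

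Peak sharing depends on how genes are arranged. An opposite-strand coding gene had a TSS within 1 kb of 26 of the 95 genes (27.4%, 19.4 to 37.1%), against 12.3% of all protein-coding genes. A peak in both lists was found at 18 of those 26 (69.2%, 50.0 to 83.5%) and at 27 of the other 69 (39.1%, 28.5 to 50.9%). Over all protein-coding genes the same shares were 50.9% of 2710 with such a neighbour and 23.7% of 19241 without. Genes with such a neighbour thus had a peak more often both in the list and genome-wide, and the intervals of the listed genes overlap slightly.

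**Figure D4:**
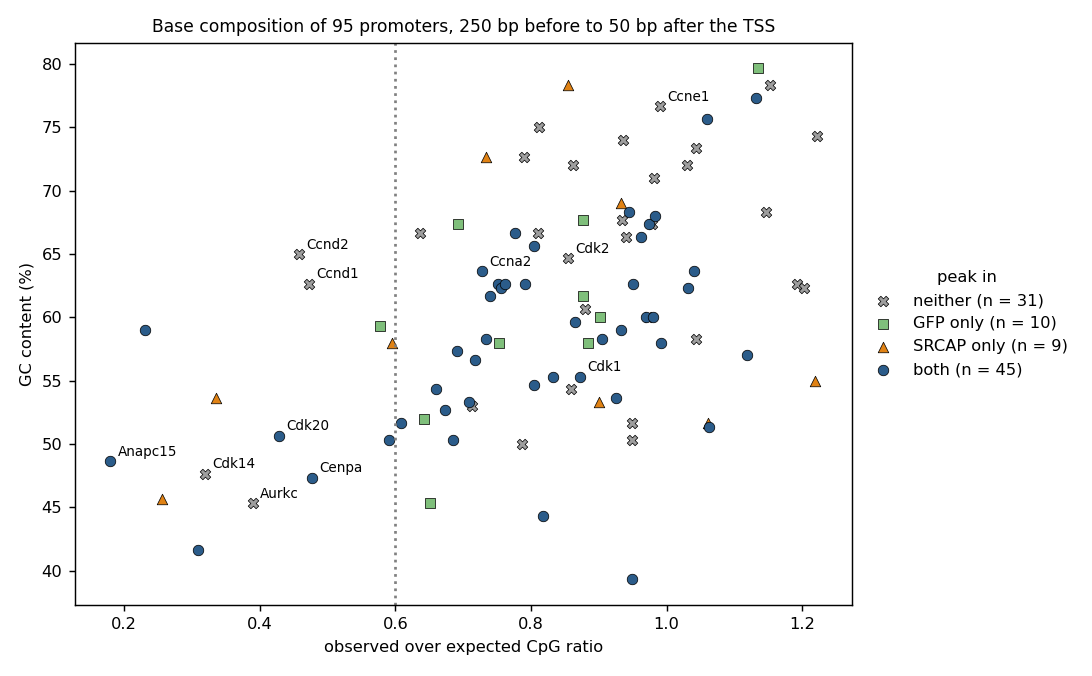
GC content (%) against the observed over expected CpG ratio of 95 promoters, from 250 bp before to 50 bp after the TSS. Symbols show the lists in which the gene had a promoter peak, and the dotted line is the CpG ratio of 0.6. Genes with no peak (crosses) lie higher on the GC axis, with a median of 66.3% against 58.3% for genes with a peak in both lists.

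The genes without a promoter peak were not the CpG-poor ones. Median CpG ratio was 0.805 at the 45 genes with a peak in both lists, 0.854 at the 19 genes with a peak in 1 list and 0.936 at the 31 genes with none, and median GC content was 58.3%, 58.0% and 66.3%. Over all protein-coding genes the medians were 0.536 and 55.3%. Of the 31 genes without a promoter peak 27 had a CpG-rich promoter, among them Ccne1 with a GC content of 76.7% and a CpG ratio of 0.990. Within CpG-rich promoters, median GC content was 59.7% for the 39 listed genes with a peak in both lists and 66.7% for the 27 with none. All protein-coding genes showed the same order, with 62.0% and 66.0%. How read depth depends on GC content in these libraries was not tested, since the lists hold no reads.

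Of the 31 genes, 10 had a peak of either list within 5 kb of a TSS (32.3%, 18.6 to 49.9%) and 12 had a peak inside the gene (38.7%, 23.7 to 56.2%). For all 12374 protein-coding genes without a promoter peak these shares were 23.6% and 25.8%, inside both intervals. Over all 95 genes, 23 had a peak in the gene body outside promoter windows with the GFP antibody (24.2%) and 22 had one with the SRCAP antibody (23.2%), against 25.3% and 25.0% of all protein-coding genes. Ccnd3 had the most GFP peaks, 7, with 3 SRCAP peaks over 94.6 kb. In the SRCAP list Cdk17 and Anapc10 had the most, 4 each. Cdk17 had 5 GFP peaks, with scores of 101 and 123 at the pair nearest to a TSS, 3378 and 3391 bp downstream.

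Motif letters were counted in 300 bp at the midpoint of each promoter peak and set beside all promoter peaks of protein-coding genes in the same list. CHR letters were in 17 of 61 GFP windows (27.9%, 18.2 to 40.2%) against 15.7%, and in 17 of 58 SRCAP windows (29.3%, 19.2 to 42.0%) against 14.0%. Both intervals lie above the values of all promoter peaks in these windows of 300 bp. The letters were found in both lists for Anapc7, Aurkb, Ccnf, Ccng2, Cdc20, Cdc40, Cdk1, Cenpa, Cenpj and Plk3. CCAAT letters were in 62.3% of GFP windows (49.7 to 73.4%) against 43.2%, and in 50.0% of SRCAP windows (37.5 to 62.5%) against 43.7%, so the value for all promoter peaks was outside the interval in 1 list only.

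E2F letters were near the value of all promoter peaks, in 14.8% against 14.2% of GFP windows and 20.7% against 15.8% of SRCAP windows. The ETS letters CCGGAAG were in 14.8% against 12.1% and in 25.9% (16.3 to 38.4%) against 14.2%. The GC box GGGCGG was in 52.5% against 44.2% and 58.6% against 52.6%. NRF1 letters, GCATGCG, were in 8.20% against 4.23% and 12.1% against 6.43%, and E-box letters, CACGTG, in 3.28% against 7.45% and 3.45% against 8.19%, each on 2 to 7 windows. YY1 letters, ATGGCGG, were in 8.20% against 4.96% and 6.90% against 5.71%, and ZNF143 letters, ACTACAA, in 4.92% against 4.84% and 5.17% against 4.65%. GC box letters can overlap E2F letters.

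**Figure D5:**
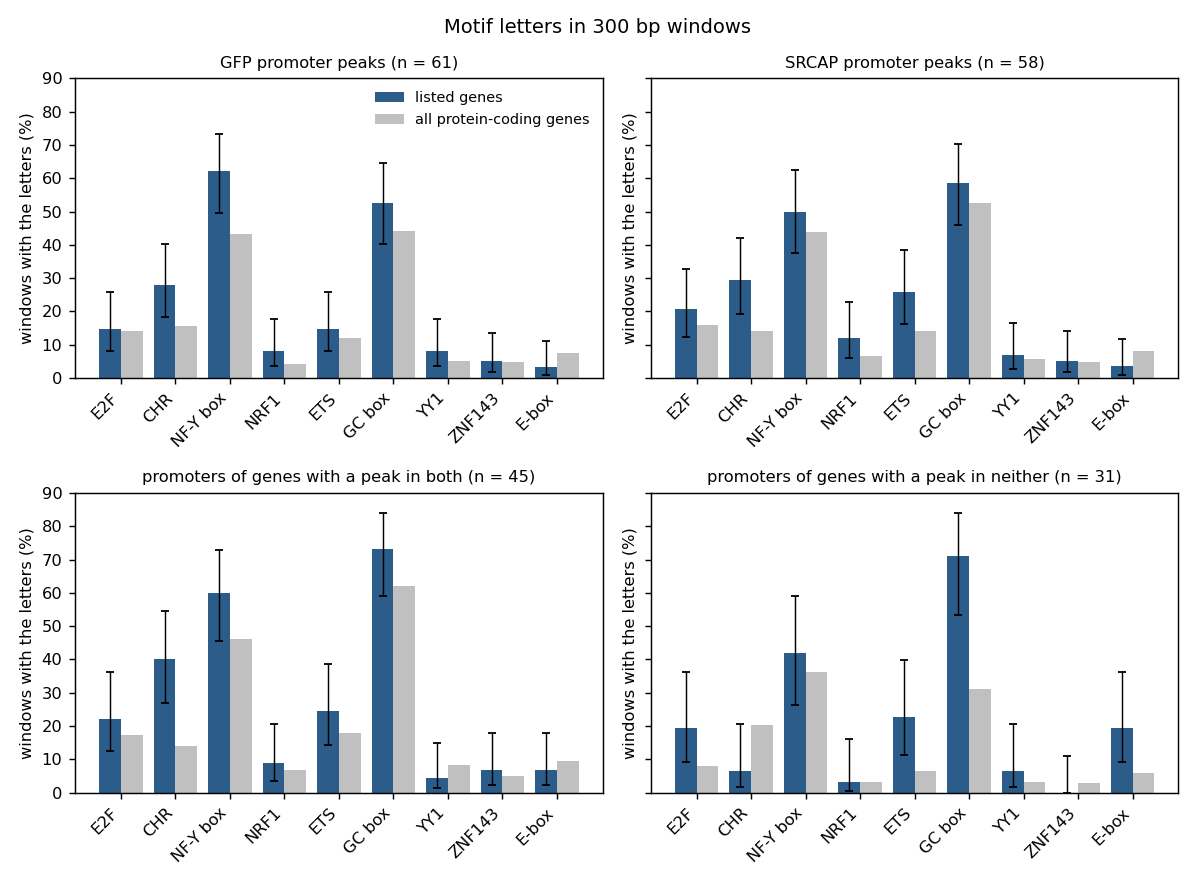
Share of 300 bp windows (%) that hold the letters of 9 motifs on either strand, for the listed genes (blue, with 95% Wilson intervals) and all protein-coding genes (grey). The upper panels are windows at promoter peaks and the lower panels are promoters, from 250 bp before to 50 bp after the TSS, of genes with a peak in both lists and in neither. CHR letters are at 40.0% and 6.45% of the listed genes in the lower panels, against 13.9% and 20.4% of all genes.

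In the 300 bp around the TSS, CHR letters were found at 22 of the 95 genes (23.2%, 15.8 to 32.6%), against 17.6% of all promoters, so the list as a whole was not set apart. They were found in 18 of the 45 genes with a peak in both lists (40.0%, 27.0 to 54.5%) and in 2 of the 31 genes with none (6.45%, 1.79 to 20.7%), and these intervals do not overlap. The 18 genes were Anapc15, Anapc16, Aurka, Aurkb, Ccnf, Ccng2, Ccni, Cdc20, Cdc40, Cdc45, Cdc7, Cdk1, Cdk16, Cenpf, Cenpj, Cenpl, Cenpn and Plk1. These letters were read at the TSS with most protein-coding transcripts and not at the peak. For Anapc15, Anapc16, Ccni, Cdk16 and Plk1 no window at a promoter peak held them. The 2 genes with the letters and without a peak were Ccnb2 and Cenpw. Of the 19 genes with a peak in 1 list, Cenpm and Plk4 had the letters (10.5%, 2.94 to 31.4%, against 14.1%). All protein-coding genes had the opposite order, with 13.9% of those with a peak in both lists and 20.4% of those with none. For E2F letters the shares were 22.2% (12.5 to 36.3%) and 19.4% (9.19 to 36.3%), against 17.2% and 7.86% of all genes, so the letters were about as frequent at cell cycle promoters without a peak, such as Ccnb1 and Cdk2, as at those with one. For GC box letters the shares were 73.3% and 71.0%, against 62.0% and 31.0%, and for ETS letters 24.4% and 22.6%, against 17.9% and 6.46%. For CCAAT letters they were 60.0% and 41.9%, against 46.3% and 36.1%, and for E-box letters 6.67% and 19.4%, against 9.46% and 5.99%. Of the 9 motifs searched, CHR was the only one whose intervals did not overlap between genes with a peak in both lists and genes with none.

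A list of 51 other cell cycle genes, in 7 sets whose symbols do not follow the naming rule, was counted in the same way. A promoter peak was found at 33 in the GFP list (64.7%, 51.0 to 76.4%, against 35.0% of all protein-coding genes), 27 in the SRCAP list (52.9%, 39.5 to 65.9%, against 35.6%) and 25 in both (49.0%, 35.9 to 62.3%, against 27.0%). The GFP and SRCAP intervals include the 52.3% and 53.5% of all genes with a CpG-rich promoter. How many of the 51 genes have such a promoter was not counted. At the median score or above, the GFP share was 39.2% against 22.2%. The chromosomal passenger genes Incenp, Birc5 and Cdca8, whose products act with Aurora B, had a peak in both lists. Of 10 outer kinetochore genes, 7 had a GFP peak and 6 a SRCAP peak, among them Ndc80, Spc24 and Spc25 in both. The spindle checkpoint set had 3 and 4 of 6, the CDK inhibitors 4 and 3 of 7, the RB and E2F family 7 and 5 of 13 (53.8% and 38.5%, with the share of all genes inside both intervals), and the MuvB complex with its partners 4 and 4 of 7. All 5 phosphatases and inhibitory kinases that act on CDKs had a GFP peak, and 2 of them, Cdc25a and Cdc25c, also had a SRCAP peak.

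The lists hold 28718 GFP and 28167 SRCAP peaks, and their read depth is unknown. Chromosome 8 held 19.7 GFP and 22.9 SRCAP peaks per Mb, against 11.0 and 10.7 on the other autosomes. The 6 listed genes on it, Anapc10, Cdc16, Cdk10, Cenpn, Cenpt and Cenpu, all had a GFP promoter peak and 4 of them a SRCAP one, against 49.2% and 51.3% of the 1040 protein-coding genes there. Without chromosome 8 the shares of genes with a promoter peak were 55.1% in the GFP list, 56.2% in the SRCAP list and 46.1% in both, against 34.3%, 34.9% and 26.3% of all protein-coding genes. The part of chromosome number in this was not tested. Peaks do not measure expression, so the cell type could not be checked from them. Of the 8 mESC markers Pou5f1, Sox2, Nanog, Zfp42, Klf4, Esrrb, Tfcp2l1 and Dppa3, the genes Zfp42 and Tfcp2l1 had a promoter peak, in both lists, and of the 3 fibroblast markers Col1a1, Col1a2 and Thy1, Col1a1 had one in both lists and Thy1 in the SRCAP list. The mESC share in both lists, 25.0% (7.15 to 59.1%), was near the 27.0% of all protein-coding genes.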

How the data were processed

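CUT&RUN of SYAT mESCs with a GFP or a SRCAP antibody gave 1 peak list per library, and libraries were grouped by the antibody in their titles. Per the labels, each peak has a position and a score deposited by the authors, whose meaning was not stated. It is a whole number with a minimum of 13, so it served only as a rank within its list. The submitters' processing notes name STAR, Picard, MACS2 and the builds mm10 and dm6 without roles. For ChIP-seq and CUT&Tag the methods of the study describe MACS2 peak calling in paired-end mode with ENCODE blacklist regions of mm10 left out. For CUT&RUN no such step is stated in the sources used here, nor the control that was used, and both decide which regions are listed. No peak end lay beyond a GRCm38 chromosome. Depth is unknown.

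Peaks were placed by midpoint against GENCODE vM21 TSSs in Python 3.11.15 (numpy 2.4.6, scipy 1.17.1, pysam 0.24.0, matplotlib 3.10.9). For a gene with several peaks the highest score was used. Base composition was read at the TSS with most protein-coding transcripts. Sequences came from the RefSeq assembly of GRCm38. The counting step was tested on simulated data. Alternatives covered the window, the TSS set, score minimums, overlap rules, shared peaks, chromosome 8 and motif windows.

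Values were given for 17 core genes, for the 10 genes with the highest lower percentile over both lists and for the 3 highest found in each list alone. Other genes are named by role, and Cdk8, Ccnd2, Ccnf, Cdk17 and the genes at window edges were chosen after their values were seen. The genes and lists were chosen with earlier results of these data known. With 1 library per antibody no test was made.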

Additional observations from a re-analysis of the deposited data

How the results depend on the processing

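The alternatives gave 293 values, of which 266 lay inside the 95% counting interval around the main value, 27 left it and 0 changed sign. Most of these values are percentages, which cannot change sign. Many belong to role groups of few genes, whose wide intervals are hard to leave, so the tally says little about how stable they are. Promoter windows of 2500 or 500 bp on either side, protein-coding transcripts only, any overlap, a score of at least 20, longer symbols and leaving out chromosome 8 moved no value outside its interval. Stronger peaks alone, those with at least the median score, left a promoter peak at 40.0% of the 95 genes in the GFP list, 43.2% in the SRCAP list and 32.6% in both, against 22.2%, 23.5% and 16.0% of all protein-coding genes. The same choice gave 14.3% of transcription cyclins and 39.2% of the 51 other genes in the GFP list, 11.6% of genes with a gene body peak in each list, and GC box letters in 65.8% of GFP windows. Those shares have no value for all genes beside them, so they show only the shift with the choice. Without peaks that lie at 2 coding genes the shares were 43.2%, 41.1% and 31.6%, against 28.1%, 28.7% and 21.0%. Both choices take away peaks by construction.

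Overlap of promoter peaks between the lists was 52.5% (GFP) and 55.2% (SRCAP) with a reciprocal overlap of at least 50%, and 92.1% and 92.7% for promoter peaks with at least the median score. In 1000 bp around the TSS the median CpG ratio of genes without a peak was 0.790, against 0.772 of genes with a peak in both lists, so their gap narrowed from that in 300 bp. Wider windows hold more letters. In 200 bp of GFP peaks CHR letters were in 18.03% (all promoter peaks 11.0%), CCAAT in 49.2% (31.9%) and the GC box in 37.7% (32.0%), and in 200 bp of SRCAP peaks ETS letters were in 15.5% (9.70%) and the GC box in 39.7% (39.8%). The gap of CHR letters at GFP peaks was thus smaller in 200 bp than in 300 bp. No interval was read for it, so the excess at GFP peaks is stated for 300 bp only. In 500 bp CHR letters were in 41.0% (26.0%) and the GC box in 65.6% (60.7%) of GFP peaks, and CHR in 44.8% (23.4%), CCAAT in 72.4% (56.2%) and the GC box in 77.6% (65.9%) of SRCAP peaks. Among listed genes with no promoter peak, CCAAT letters were in 64.5% in 500 bp, beside 41.9% in 300 bp. No share over all genes is set beside the wider window, so only the shift is shown.

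The split of CHR letters by peaks, 40.0% and 6.45%, was 33.3% and 6.45% in 200 bp and 51.1% and 16.1% in 500 bp, alternatives that were added after the data had been seen. No paired analysis was possible because there was 1 library per antibody and no test. With no replicates and no control, neither a missing peak nor one found with a single antibody can be told from noise between libraries, and without reads no depth limit can be set. Peaks mark where the antibody signal passed a caller, not occupancy or expression.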
